A study of Rattus norvegicus with 15 samples.

Results

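The genes described here are Atf4, the transcription factor of the amino acid response, and 9 of its targets in amino acid, serine and stress metabolism. They were taken by symbol from the deposited table, which holds all 10 among its 21576 genes, and all 10 were among the 13163 genes with enough reads to test. The 15 RNA libraries came from livers of male Sprague-Dawley rats, 5 in each of 3 groups. ZXD rats ate a lipid-raising feed throughout and, after its initial 4 weeks, were dosed orally with Zexie Decoction, a herbal preparation, at 2.2 g per kg daily over a further 4 weeks. HFD rats ate the same feed and received saline in place of the decoction. That feed, shared by both groups, was base forage (66%) with sucrose (16.7%), yolk (8.3%), lard (7%), cholesterol (2%) and the bile salt sodium cholate (0.3%). It also held 0.2% propylthiouracil, a blocker of thyroid hormone synthesis. CON rats ate normal chow. The labels give 10 rats a group but not which rats gave the libraries, nor the age of the animals, so p-values measure the spread between these libraries, which may be technical in part. Pairs of libraries within a group differed in counts by a chi-square per gene of 19.5 (CON 3 and CON 5) to 245 (ZXD 2 and ZXD 4). These values are above what counting noise alone gives, but whether libraries were single rats or pools is not known.

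When amino acids run short, or unfolded protein, viral RNA or lack of haem is sensed, kinases phosphorylate the initiation factor eIF2. General translation then slows while the Atf4 message is translated more, so that much of the regulation of ATF4 lies beyond its RNA level. ATF4 binds C/EBP-ATF response elements and raises genes that make, import and charge amino acids, and with longer stress also genes of cell death. Adult liver makes little asparagine synthetase and little of the serine synthesis pathway under ample dietary protein.

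The promoters of the member with the widest difference between groups, Asns, and of the members whose promoter held the core of the response element, Chac1 and Trib3, are shown for the 250 bases before the start site that the RefSeq promoter table of build GRCr8 uses. Capitals mark matches to the motif TGATGNAA or, on the opposite strand, TTNCATCA. The Asns stretch lies at chr4:36769416-36769665 on the minus strand, the Chac1 stretch at chr3:126795881-126796130 on the plus strand and the Trib3 stretch at chr3:161275534-161275783 on the minus strand. The annotated Asns gene reaches 555 bases further upstream than the start site used for that window, so the 250 bases shown lie within that annotated gene.
Asns: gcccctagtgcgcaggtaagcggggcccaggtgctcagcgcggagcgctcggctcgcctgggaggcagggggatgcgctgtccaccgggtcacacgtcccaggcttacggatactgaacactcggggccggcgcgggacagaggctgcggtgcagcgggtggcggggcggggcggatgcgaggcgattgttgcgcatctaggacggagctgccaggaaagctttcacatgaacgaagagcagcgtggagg
Chac1: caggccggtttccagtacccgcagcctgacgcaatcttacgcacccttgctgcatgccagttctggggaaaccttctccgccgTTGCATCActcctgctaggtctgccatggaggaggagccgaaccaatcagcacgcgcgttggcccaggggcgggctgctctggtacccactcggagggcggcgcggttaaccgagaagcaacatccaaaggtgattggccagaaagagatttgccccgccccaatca
Trib3: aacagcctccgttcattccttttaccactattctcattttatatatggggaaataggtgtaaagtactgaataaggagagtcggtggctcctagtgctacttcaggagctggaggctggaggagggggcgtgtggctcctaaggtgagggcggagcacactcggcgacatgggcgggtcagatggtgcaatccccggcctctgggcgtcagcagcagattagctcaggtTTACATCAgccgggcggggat
Promoter windows of 300 bases, from 250 before to 50 after the start, were found for all 10 members, and 2 of them held the motif. In Chac1 the letters were TTGCATCA, 167 bases before the start, and in Trib3 TTACATCA, 21 bases before it. Of 33469 such windows in the table, 3.98% held a match. These are matches of letters and not mapped binding sites. The start site used was compared with the annotated gene for Asns, Chac1 and Trib3 only. A window without a match, such as that of Asns, may therefore not cover the upstream promoter. The windows leave out distant elements and also introns, other than any part of an intron that a window happens to include.

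Libraries held 12552449 to 14228052 counts. The groups differed in makeup: TMM factors, which scale for it, were 1.01 to 1.28 in ZXD, 1.07 to 1.13 in HFD and 0.793 to 0.867 in CON. Scaling by library totals instead put the median log2 fold change over all tested genes at 0.44 in HFD versus CON, where TMM gave 0.02, and at 0.46 in ZXD versus CON, where TMM gave 0.03, so all changes against CON are relative to the TMM scale. Levels below are CPM, read counts scaled to a common library size, on the TMM scale. Liver markers were abundant in every library: 10 hepatocyte genes summed to 59418 to 115303 CPM in ZXD, 79170 to 111012 CPM in HFD and 164120 to 204268 CPM in CON. In bulk liver, fewer cells of a type and less RNA per cell cannot be told apart. Libraries also differed in their markers of other cells. The sum of 15 macrophage markers ran from 751 to 4854 CPM in ZXD, from 499.7 to 1972 CPM in HFD and from 307 to 810 CPM in CON, and was highest in ZXD 4 (4854 CPM) and ZXD 3 (3451 CPM), in HFD 2 (1972 CPM) and HFD 5 (1473 CPM), and in CON 1 (810 CPM). ZXD 4 also had the highest sum of 10 proliferation genes, 201 CPM in a group range of 33.6 to 201, against 36.9 to 59.5 in HFD and 24.5 to 36.9 in CON. Of the macrophage markers 12 of 15 were called higher in ZXD versus CON and 6 of 15 in HFD versus CON, beside 17.9% and 10.0% of all tested genes. Lyz2 and Gpnmb weighed most in the ZXD sum, with means of 621 and 533 CPM, against 20.1 and 16.4 CPM in CON. Cd14, Clec4f and Cd163 were not called in ZXD versus CON. T and NK cell markers summed to 35.8 to 139 CPM in ZXD, 26.2 to 95.5 in HFD and 11.3 to 34.2 in CON, with Gzmb at 0 in all libraries and Cd8b at 0 in CON. Cholangiocyte markers summed to 39.4 to 83.2 CPM in ZXD, 50 to 93.9 in HFD and 17.9 to 28.1 in CON. Endothelial markers summed to 370 to 550.2 CPM in ZXD, 104 to 350 in HFD and 96.2 to 364 in CON, and stellate cell and fibroblast markers to 269 to 641 CPM in ZXD, 174 to 633 in HFD and 244 to 458 in CON.

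The HFD versus CON comparison asks what the feed changed. HFD rats also received saline, and no dosing is given for CON rats, so dosing and feed cannot be told apart here. Asns and Phgdh rose and Shmt2 fell in HFD livers, while Atf4 itself and the other 6 members were not called at an edgeR adjusted p under 0.05. These 3 calls among 10 members stand beside 21.0% of all tested genes called in this comparison, 10.0% higher and 10.9% lower. In the ZXD versus CON comparison, which shares the CON libraries, 4 members were higher, Asns, Phgdh, Mthfd2 and Chac1, and 1 was lower, Shmt2, beside 32.7% of all tested genes called, 17.9% higher and 14.8% lower. The shares of members called, 3 and 5 of 10, were above these backgrounds and carry no test, since the members were chosen with earlier results known. The median log2 fold change of the members was 0.33 in HFD versus CON and 0.32 in ZXD versus CON, beside medians of 0.02 and 0.03 over all tested genes. At an unadjusted p under 0.05 there were 5 members in HFD versus CON, beside 37.0% of all tested genes, and 7 in ZXD versus CON, beside 43.7%.

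**Figure D1:**
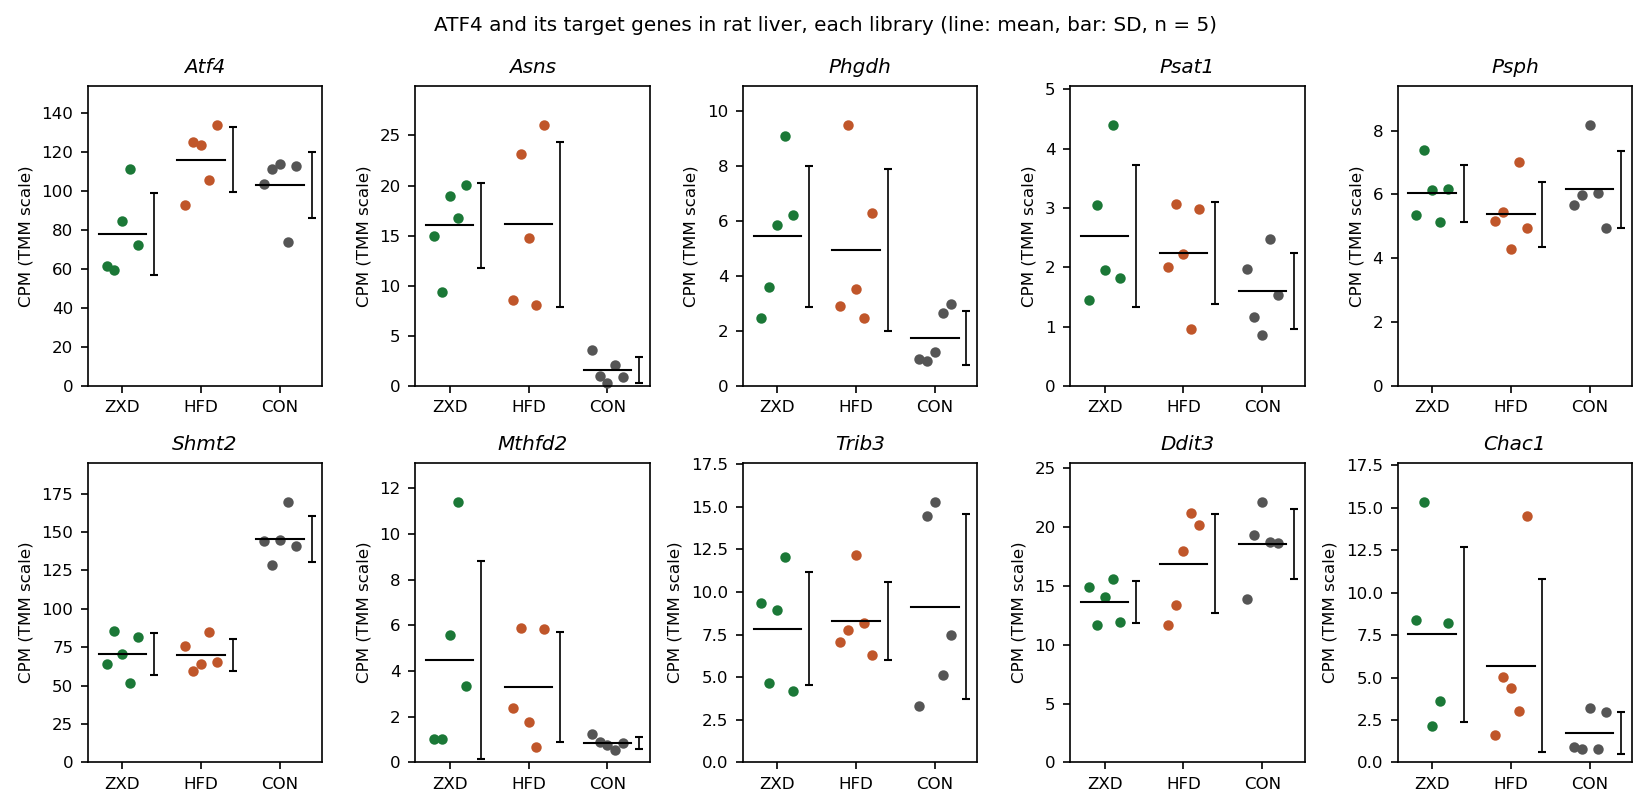
CPM on the TMM scale (vertical axis, linear from 0) of the 10 members in each of 5 ZXD, 5 HFD and 5 CON libraries; points are libraries, lines are means and bars at the side are SD. Asns and Shmt2 separate the feed groups from CON with no overlap (lowest HFD value of Asns 8.11 CPM, highest CON value 3.59 CPM), whereas Mthfd2 and Chac1 spread widely within ZXD and HFD.

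Atf4 encodes the transcription factor. Its CPM was 61.5, 59.6, 84.3, 111 and 72.2 in ZXD libraries 1 to 5, against 92.6, 125, 124, 105 and 134 in HFD libraries and 104, 111, 114, 73.9 and 113 in CON libraries. HFD and CON overlapped, and of the ZXD libraries only ZXD 4 reached above the lowest HFD library. In HFD versus CON the log2 fold change was 0.17 (95% interval -0.21 to 0.55, edgeR adjusted p = 0.506). It was 0.59 scaled by library totals, and was called there (edgeR adjusted p = 0.0363). In ZXD versus CON it was -0.41 (95% interval -0.78 to -0.03, edgeR adjusted p = 0.0892), or 0.045 scaled by library totals. Without CON 4 (edgeR adjusted p = 0.037) or ZXD 4 (0.02) it was called lower there.

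Asns encodes asparagine synthetase, which makes asparagine from aspartate and glutamine. It had 15, 9.36, 18.9, 16.8 and 20.1 CPM in ZXD, against 8.55, 23.1, 14.8, 8.11 and 26.0 CPM in HFD and 3.59, 0.981, 0.285, 2.13 and 0.852 CPM in CON. Every library of both feed groups lay above every CON library, where the lowest, CON 3, held no more than 3 counts. The rise was 10.2-fold in HFD versus CON (log2 fold change 3.35, SE 0.51, edgeR adjusted p = 0.000641). In ZXD versus CON it was also 10.2-fold (log2 fold change 3.34, SE 0.51, edgeR adjusted p = 0.00059). Asns kept its call under every alternative and without any single library, with log2 fold changes from 2.73 to 3.90 in HFD versus CON. In CON, CON 1 and CON 4 were highest both in Asns and in macrophage markers. In ZXD the orders differed: Asns was highest in ZXD 5, and ZXD 4, with the largest macrophage sum, ranked 3 in Asns. Within HFD, the libraries HFD 2 and HFD 5 were highest both in Asns and in macrophage markers, whose part in the result was not tested beyond leaving these libraries out. HFD 2 and HFD 5 were also highest in their group in T and NK cell, cholangiocyte, stellate cell and fibroblast, and proliferation markers. Without these 2 libraries the log2 fold change in HFD versus CON was 2.73 (edgeR adjusted p = 0.00666).

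Phgdh, Psat1 and Psph encode the 3 enzymes that turn a glycolytic intermediate into serine, in that order. Phgdh, phosphoglycerate dehydrogenase, opens the pathway and had 2.48, 3.59, 5.87, 9.09 and 6.23 CPM in ZXD, against 2.91, 9.49, 3.54, 2.45 and 6.30 CPM in HFD and 0.987, 0.892, 1.24, 2.66 and 2.98 CPM in CON. It rose 2.81-fold in HFD versus CON (log2 fold change 1.49, SE 0.48, edgeR adjusted p = 0.0388) and 3.10-fold in ZXD versus CON (log2 fold change 1.63, SE 0.48, edgeR adjusted p = 0.0178). The groups overlapped in both comparisons. Leaving out HFD 2 (edgeR adjusted p = 0.117), HFD 5 (0.085), CON 1 (0.0744), CON 2 (0.0794) or CON 3 (0.0825) ended the call in HFD versus CON, as did limma voom (adjusted p = 0.0992). Without HFD 2 and HFD 5 together its log2 fold change was 0.75 (edgeR adjusted p = 0.357), and in ZXD versus CON the call was lost without ZXD 4 (edgeR adjusted p = 0.0533).

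Psat1, phosphoserine aminotransferase, had 1.44 to 4.39 CPM in ZXD with a median of 1.96, against 0.954 to 3.07 CPM in HFD with a median of 2.22 and 0.855 to 2.48 CPM in CON with a median of 1.53. Psph, phosphoserine phosphatase, which releases serine, had 5.13 to 7.41 CPM in ZXD, against 4.28 to 7.02 CPM in HFD and 4.94 to 8.17 CPM in CON. Neither was called. The log2 fold change in HFD versus CON was 0.48 for Psat1 (95% interval -0.37 to 1.33) and -0.19 for Psph (95% interval -0.59 to 0.20), and that of Psph was 0.23 scaled by library totals. Values in ZXD versus CON were 0.66 for Psat1 (95% interval -0.19 to 1.51, edgeR adjusted p = 0.22; 0.0378 scaled by library totals) and -0.03 for Psph (95% interval -0.42 to 0.37). Of the 3 serine synthesis genes the one called by edgeR on the TMM scale was Phgdh, the gene of the opening step. The genes were not tested against each other. The 95% intervals of Phgdh, 0.48 to 2.50 in HFD versus CON and 0.62 to 2.64 in ZXD versus CON, overlapped those of Psat1 but not those of Psph.

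Shmt2 and Mthfd2 encode mitochondrial enzymes of folate one-carbon metabolism. Shmt2, a serine hydroxymethyltransferase that splits serine into glycine and a one-carbon unit, had 63.8, 85.3, 70.9, 51.4 and 81.7 CPM in ZXD, against 75.9, 59.3, 63.7, 84.7 and 65.6 CPM in HFD and 144, 128, 145, 170 and 141 CPM in CON. No library of either feed group reached the lowest CON library. Shmt2 fell by 1.06 on the log2 scale in HFD versus CON (SE 0.14, edgeR adjusted p = 0.00025), which is 2.08-fold lower. In ZXD versus CON it fell by 1.04 (SE 0.14, edgeR adjusted p = 0.000248). It was called lower under every alternative and without any single library, and scaled by library totals it fell by 0.64 and by 0.63. The summed hepatocyte markers were also lower in both feed groups, with no overlap with CON. Of these 10 markers 5 were called lower in ZXD versus CON and 4 in HFD versus CON, beside 14.8% and 10.9% of all tested genes. None was called higher. Alb, the albumin gene, made up most of the difference in the sum, with means of 33771 CPM in ZXD and 39380 CPM in HFD, against 104282 CPM in CON. The part of these markers in the Shmt2 result was not tested. Asns and Shmt2 were the 2 members of 10 whose groups did not overlap in HFD versus CON, and again in ZXD versus CON, beside 15% and 18.0% of all tested genes.

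Mthfd2, a methylene-tetrahydrofolate dehydrogenase that is scarce in most adult tissue and high in dividing cells, moved the other way. It had 1.03, 1.01, 5.59, 11.4 and 3.33 CPM in ZXD, against 2.40, 5.86, 1.77, 0.682 and 5.83 CPM in HFD and 1.26, 0.892, 0.760, 0.532 and 0.852 CPM in CON. In all, 3 ZXD libraries and 4 HFD libraries lay above every CON library, while ZXD 1, ZXD 2 and HFD 4 lay within the CON range. It rose 5.19-fold in ZXD versus CON (log2 fold change 2.38, SE 0.71, edgeR adjusted p = 0.0194). Leaving out ZXD 4 ended that call (log2 fold change 1.67, edgeR adjusted p = 0.0724), as did limma voom (adjusted p = 0.154) and a fit blocked by replicate number (edgeR adjusted p = 0.0812). In HFD versus CON its log2 fold change was 1.94 (95% interval 0.44 to 3.43) and did not pass (edgeR adjusted p = 0.0613). DESeq2 called it there (adjusted p = 0.0195), as did edgeR scaled by library totals (adjusted p = 0.0202) or without HFD 4 (0.0314), ZXD 4 (0.035), ZXD 2 (0.0437) or ZXD 1 (0.0495). Neither limma voom (adjusted p = 0.269) nor the fit blocked by replicate number (edgeR adjusted p = 0.134) called it, and without HFD 2 and HFD 5, which held its highest HFD values, the log2 fold change was 0.91 (edgeR adjusted p = 0.486). Within ZXD and within HFD the libraries highest in Mthfd2 were those highest in macrophage markers, ZXD 4 and ZXD 3, and HFD 2 and HFD 5. The same libraries were highest in T and NK cell markers (139 and 110 CPM, and 95.5 and 85.6 CPM). ZXD 4 was also highest in its group in cholangiocyte, stellate cell and fibroblast, and proliferation markers, as were HFD 2 and HFD 5 in theirs. ZXD 4 had the lowest hepatocyte sum in ZXD (59418 CPM), while HFD 2 had the highest in HFD (111012 CPM). For Phgdh, ZXD 4 and HFD 2 were the highest of their groups, but in CON the highest was CON 5, with the lowest macrophage sum. The part of any of these marker sets in the values of Phgdh and Mthfd2 was not tested.

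**Figure D2:**
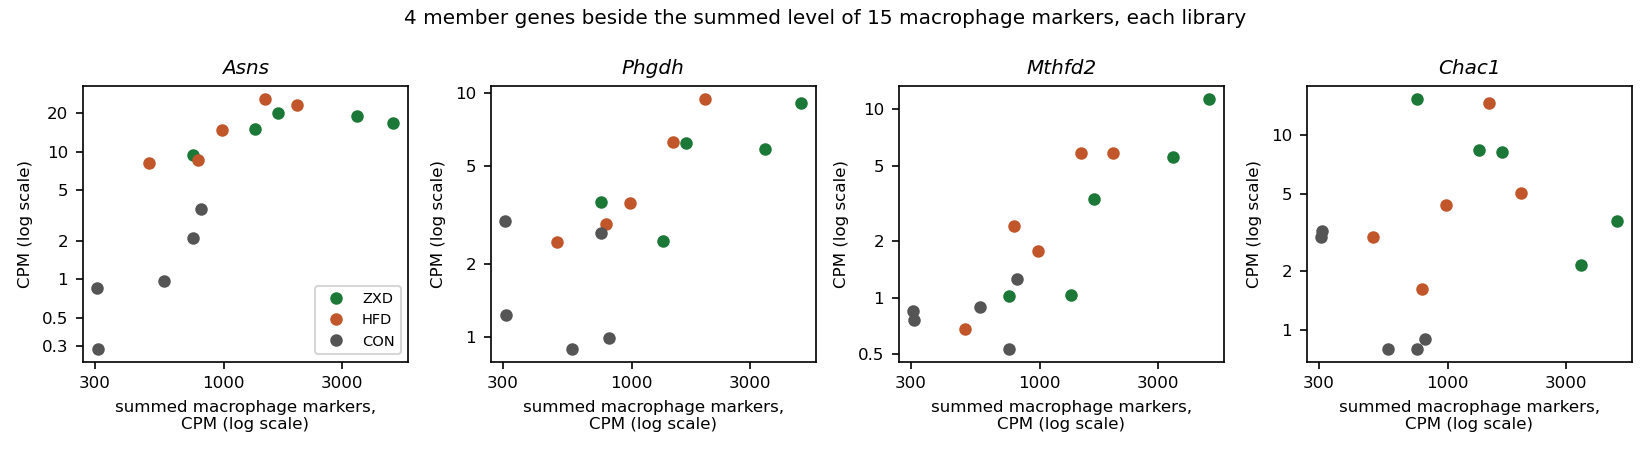
CPM of Asns, Phgdh, Mthfd2 and Chac1 (vertical, log scale) against the summed CPM of 15 macrophage markers (horizontal, log scale), with 1 point for each ZXD, HFD and CON library. Within ZXD and HFD, Phgdh and Mthfd2 are highest in the libraries with the largest macrophage sum, ZXD 4 (9.09 and 11.4 CPM) and HFD 2 (9.49 and 5.86 CPM), while in CON Phgdh is highest in CON 5 (2.98 CPM), which has the lowest sum (307 CPM). Chac1 is highest in ZXD 2 (15.4 CPM, macrophage sum 751 CPM) and in HFD 5 (14.5 CPM, sum 1473 CPM). ZXD 4 and HFD 2 also had the largest T and NK cell sums of their groups (139 and 95.5 CPM, not plotted).

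Trib3, Ddit3 and Chac1 are targets of the stress arm. Trib3 encodes a pseudokinase that restrains ATF4 and the kinase AKT. It had 4.20 to 12.0 CPM in ZXD with a median of 8.95, against 6.30 to 12.2 CPM in HFD with a median of 7.75 and 3.32 to 15.3 CPM in CON with a median of 7.49. Its widest spread was within CON, and its log2 fold change in HFD versus CON was -0.14 (95% interval -0.98 to 0.70), or 0.28 scaled by library totals. The ZXD versus CON value was -0.22 (95% interval -1.06 to 0.62), or 0.25 scaled by library totals. Ddit3 encodes CHOP, a transcription factor of the unfolded protein response. It had 11.7 to 15.6 CPM in ZXD, against 11.7 to 21.2 CPM in HFD and 13.9 to 22.1 CPM in CON. Its log2 fold change was -0.14 in HFD versus CON (95% interval -0.51 to 0.23), or 0.28 scaled by library totals. In ZXD versus CON it was -0.44 (95% interval -0.81 to -0.07, edgeR adjusted p = 0.0634). DESeq2 called it lower (adjusted p = 0.0451), as did edgeR without CON 1 (0.03) or HFD 1 (0.0416), but scaled by library totals the value was -0.0033 (edgeR adjusted p = 0.99).

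Chac1 encodes an enzyme that breaks down glutathione. It had 8.39, 15.4, 2.17, 3.60 and 8.19 CPM in ZXD, against 1.62, 5.03, 4.36, 3.0 and 14.5 CPM in HFD and 0.897, 0.803, 3.23, 0.798 and 2.98 CPM in CON. Both feed groups overlapped with CON, in which CON 3 and CON 5 held more than the other three libraries. It rose 4.31-fold in ZXD versus CON (log2 fold change 2.11, SE 0.66, edgeR adjusted p = 0.0253). The call was lost without ZXD 2 (edgeR adjusted p = 0.0622), CON 1 (0.0502), CON 2 (0.0618) or CON 4 (0.0591) and by limma voom (adjusted p = 0.0813). In HFD versus CON the log2 fold change was 1.71 (95% interval 0.30 to 3.11) and did not pass (edgeR adjusted p = 0.0757), although DESeq2 called it (adjusted p = 0.0266), as did edgeR scaled by library totals (adjusted p = 0.0184) or without HFD 1 (0.0464). Without HFD 2 and HFD 5 that value was 0.77 (edgeR adjusted p = 0.508). Beside the macrophage markers the groups differed in order: in ZXD the highest Chac1 value was in ZXD 2, which had the lowest macrophage sum, whereas in HFD the highest values were in HFD 5 and HFD 2, which had the largest sums. The part of these markers in the Chac1 values was not tested.

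The ZXD versus HFD comparison asks what the decoction changed on the feed. None of the 10 members was called by edgeR, DESeq2 or limma voom, and 1 had an unadjusted p under 0.05. Over all 13163 tested genes edgeR called 0, or 0% of them, with 16.5% at an unadjusted p under 0.05. DESeq2 called 216 genes higher and 132 lower, no member among them. The member with the unadjusted p was Atf4, with a mean of 77.8 ± 21.1 CPM in ZXD and 116 ± 16.7 CPM in HFD (SD, n = 5 each). Its log2 fold change was -0.58 (95% interval -0.95 to -0.20, edgeR adjusted p = 0.175), and 4 of 5 ZXD libraries lay below all 5 HFD libraries. The adjusted p of Atf4 ranged from 0.0574 by DESeq2 to 0.343 over the alternatives. The smallest intervals were those of Shmt2 (log2 fold change 0.02, 95% interval -0.29 to 0.32), Ddit3 (-0.31, 95% interval -0.68 to 0.07) and Psph (0.17, 95% interval -0.22 to 0.56), besides Atf4. For Asns the difference was -0.01 with an interval from -0.95 to 0.93, and for Chac1 and Mthfd2 the intervals ran from -0.91 to 1.71 and from -0.92 to 1.80, so that sizeable changes in either direction remain within them. No member's groups failed to overlap, beside 3.68% of all tested genes.

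**Figure D3:**
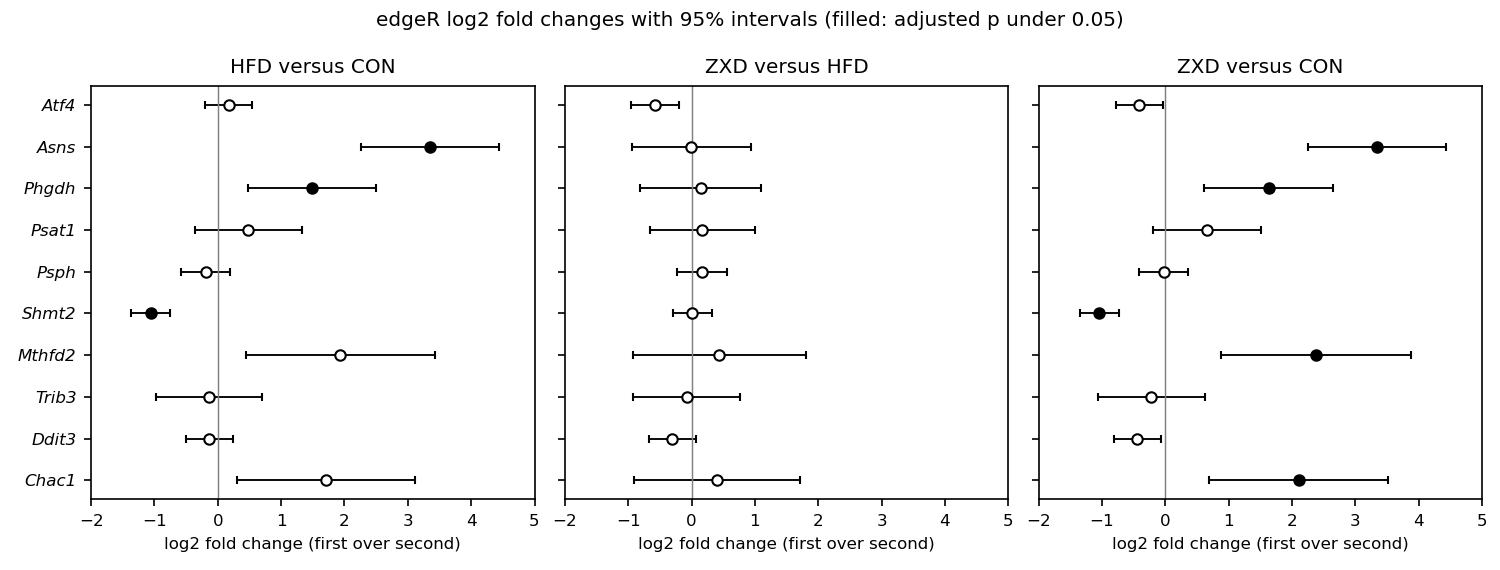
Log2 fold changes of the 10 members in 3 comparisons (horizontal axis, first-named group over second) with 95% intervals from the edgeR fit; filled points have an adjusted p under 0.05. Asns (3.35 and 3.34) and Shmt2 (-1.06 and -1.04) stand out against CON in both feed groups, and no point is filled in ZXD versus HFD.

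Per unit length, in the authors' deposited FPKM, Atf4 and Shmt2 were the most abundant members in every group and Ddit3 the third. In ZXD the mean FPKM was 71.5 for Atf4, 37.7 for Shmt2, 17.6 for Ddit3 and 8.87 for Asns, and the ranges of Atf4, Shmt2, Ddit3 and Asns did not overlap between neighbours in that order. In HFD these means were 104 for Atf4, 37.6 for Shmt2, 21.5 for Ddit3 and 8.82 for Asns, again with no overlap between neighbours. In CON, Atf4 (69.4 FPKM) and Shmt2 (58.4 FPKM) overlapped in range, and Ddit3 followed at 17.7 FPKM. Asns, next after Ddit3 in ZXD and HFD, was the last but one of the 10 in CON at 0.636 FPKM, where it overlapped with Psat1 (0.639 FPKM) above it and with Mthfd2 (0.344 FPKM) below it. From Asns downward in ZXD and HFD every member overlapped in range with the next.

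Whether members varied together across livers was examined in pairs. With each group's mean removed, 45 pairs of members were compared over 15 libraries, which share 1 sequencing data set and its scaling. No pair passed after Benjamini-Hochberg adjustment over the 45, by permutation of libraries within groups, and 11 had an unadjusted permutation p under 0.05. The strongest was Atf4 with Mthfd2 (Pearson r = 0.76, permutation p = 0.0034, adjusted 0.126; Spearman rho = 0.70, permutation p = 0.0107, adjusted 0.179), and r was 0.71 without CON 4 and ZXD 4, the libraries farthest in Atf4. Atf4 with Shmt2 gave a negative value (r = -0.75, permutation p = 0.00558, adjusted 0.126; rho = -0.59, permutation p = 0.0435, adjusted 0.245), and r was -0.57 without the same libraries. For Atf4 and Asns, the best-known pair of factor and target, r was 0.09 and rho was 0.11, and r was 0.28 without CON 4 and ZXD 4. Asns had few counts in CON, from 3 in CON 3 to 40 in CON 1, which limits values for its pairs. Within ZXD, Atf4 and Mthfd2 had the same order of libraries as the summed macrophage markers, with ZXD 4 highest and ZXD 2 lowest. Within HFD, HFD 5 and HFD 2 were highest in both genes and in that sum. The T and NK cell sum was also highest in ZXD 4 and lowest in ZXD 2, and highest in HFD 2 and HFD 5. In CON, Atf4 was highest in CON 3, which ranked 4 in the macrophage sum. The part of these markers in the pairs was not tested.

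The 5 tested genes whose group-centred log2 CPM was most like that of Atf4 over the 15 libraries were Ptpn2, RGD1310257, Hilpda, Cytip and Ctdnep1, with Pearson r from 0.92 to 0.94. Spearman rho was 0.72 for Ptpn2 and 0.94 for Hilpda. For Asns they were Stx8, Lilrb3a, P2ry13, Ddx60 and Med4, with r from 0.86 to 0.90. As these genes were picked as the highest of all tested genes, the values carry no test. Those for Asns also include its low counts in CON. None of the 9 other members was among them for either gene.

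There were 6 lists of other genes around ATF4 read from the same fit, with 78 tested genes of 82 entries. Their counts stand beside 10.0% of all tested genes called higher and 10.9% lower in HFD versus CON (21.0% in either direction), and 17.9% higher and 14.8% lower in ZXD versus CON (32.7% in either direction). Among kinases and regulators of eIF2, 1 of 14 tested members was higher and 1 lower in HFD versus CON. Impact, a brake on the kinase GCN2, averaged 52.6 ± 9.37 CPM in HFD and 38.8 ± 5.02 CPM in CON (SD, n = 5 each; log2 fold change 0.44, edgeR adjusted p = 0.0335). It was not called once CON 1, CON 2, CON 4, HFD 2, HFD 3 or HFD 5 was left out (edgeR adjusted p up to 0.0797), and without HFD 2 and HFD 5 together (0.193). Ppp1r15b, which steers the constitutive phosphatase to eIF2, fell to 133 ± 41.1 CPM in HFD, against 260 ± 9.36 CPM in CON (edgeR adjusted p = 0.0036), and to 106 ± 24.3 CPM in ZXD (edgeR adjusted p = 0.000478 versus CON). Eif2b4, a subunit of the exchange factor of eIF2, was called lower in ZXD versus CON (log2 fold change -0.47, edgeR adjusted p = 0.0245), but not scaled by library totals, where it was -0.05, nor without CON 3 (edgeR adjusted p = 0.067) or ZXD 4 (0.0627). The kinase genes Eif2ak1, Eif2ak2, Eif2ak3 and Eif2ak4 were not called, and Ppp1r15a, the inducible partner of the phosphatase and an ATF4 target, had log2 fold changes of 0.01 in HFD versus CON and 0.32 in ZXD versus CON, without a call.

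Other stress targets of ATF4 had 3 higher and 1 lower among the 16 genes tested in HFD versus CON, and 2 higher and 2 lower in ZXD versus CON. These shares, 4 of 16 in each, were near the 21.0% of all tested genes called in HFD versus CON and below the 32.7% called in ZXD versus CON. Eif4ebp1, a repressor of cap-dependent translation, was 37.4 ± 6.62 CPM in HFD and 22.3 ± 2.78 CPM in CON (log2 fold change 0.75, edgeR adjusted p = 0.00152). It was also called higher in ZXD versus CON (log2 fold change 0.37, edgeR adjusted p = 0.0408). Atf5, a related transcription factor, was 302 ± 49.8 CPM in HFD and 196 ± 36.0 CPM in CON (log2 fold change 0.62, edgeR adjusted p = 0.023), and lost its call without CON 2, CON 3, CON 5 or HFD 2 (edgeR adjusted p up to 0.0628) and without HFD 2 and HFD 5 together (0.0572). Atf3, a stress-induced factor, rose by 2.32 on the log2 scale in ZXD versus CON (edgeR adjusted p = 0.00896; limma voom adjusted p = 0.0508). It was also called higher in HFD versus CON (log2 fold change 1.72, edgeR adjusted p = 0.0466). Sesn2, which senses leucine and restrains mTORC1, was lower in both feed groups, at 25.7 ± 5.05 CPM in ZXD (edgeR adjusted p = 0.00988) and 23.6 ± 3.77 CPM in HFD (edgeR adjusted p = 0.00714), against 45.9 ± 15.8 CPM in CON, and lost both calls scaled by library totals (adjusted p = 0.125 and 0.0542). Sqstm1, an autophagy receptor, was lower in ZXD versus CON (log2 fold change -0.53, edgeR adjusted p = 0.0277; 0.629 scaled by library totals), and lost its call without CON 1, CON 3, ZXD 1 or ZXD 4 (edgeR adjusted p up to 0.0605).

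Amino acid carriers had 2 higher and 1 lower among the 9 genes tested in HFD versus CON, and 4 higher and 2 lower in ZXD versus CON, beside 21.0% and 32.7% of all tested genes called in either direction. Slc7a1, a carrier of cationic amino acids, averaged 3.51 ± 2.17 CPM in HFD and 0.752 ± 0.338 CPM in CON (edgeR adjusted p = 0.0238). It was also called higher in ZXD versus CON (log2 fold change 2.29, edgeR adjusted p = 0.0136). Slc1a5, a glutamine carrier, was higher in ZXD, at 5.82 ± 4.38 CPM (edgeR adjusted p = 0.0021), and in HFD, at 2.49 ± 1.19 CPM (edgeR adjusted p = 0.0372), against 0.729 ± 0.247 CPM in CON. The HFD calls of Slc7a1 and Slc1a5 were lost without HFD 2 and HFD 5 (edgeR adjusted p = 0.139 and 0.232) and in the fit blocked by replicate number (0.065 and 0.0843), and by limma voom (adjusted p = 0.0993 and 0.198). Single libraries also decided them: Slc7a1 lost its call without CON 3, CON 4, CON 5 or HFD 5 (edgeR adjusted p up to 0.071), and Slc1a5 without any single CON library, HFD 1, HFD 2 or HFD 5 (up to 0.0865). Slc7a11, the cystine carrier, was 2.90 ± 3.37 CPM in ZXD, with 0 counts in ZXD 2, against 0.0537 ± 0.0802 CPM in CON, where no library reached 3 counts, so the size of its rise is uncertain (edgeR adjusted p = 0.00654; limma voom adjusted p = 0.1). Slc43a1, a carrier of large neutral amino acids, went down: it was 10.4 ± 3.07 CPM in ZXD and 14.5 ± 3.24 CPM in HFD, against 40.4 ± 10.1 CPM in CON (edgeR adjusted p = 5.5e-05 for ZXD and 0.000499 for HFD), with no overlap.

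Other synthesis genes of the programme had 1 higher and 1 lower among the 8 genes tested in HFD versus CON, and 3 higher calls in ZXD versus CON, near the 21.0% and 32.7% of all tested genes called. Pycr1, the mitochondrial enzyme that completes proline, was 1.54 ± 0.366 CPM in ZXD (edgeR adjusted p = 0.0257) and 1.50 ± 0.594 CPM in HFD (edgeR adjusted p = 0.0405), against 0.519 ± 0.408 CPM in CON. Aldh18a1, which opens proline synthesis, and Mthfd1l, a mitochondrial formate-releasing enzyme, rose in ZXD versus CON by 2.39 and 1.67 on the log2 scale (edgeR adjusted p = 0.0174 and 0.0257). Without ZXD 4, none of these 3 was called in ZXD versus CON (edgeR adjusted p = 0.0732 for Aldh18a1, 0.1 for Mthfd1l and 0.0589 for Pycr1). Aldh18a1 and Mthfd1l also lost their calls by limma voom (adjusted p = 0.141 and 0.0759) and in the fit blocked by replicate number (edgeR adjusted p = 0.0689 and 0.062). Mthfd1l also lost its call without CON 2 (marginally) or CON 3 (0.067), and Pycr1 without CON 2, CON 3 or CON 5 (edgeR adjusted p up to 0.0657). In HFD versus CON the Pycr1 call was lost without CON 2 to CON 5, HFD 1, HFD 2, HFD 4, HFD 5 or ZXD 3, left out singly (edgeR adjusted p up to 0.092), without HFD 2 and HFD 5 together (0.13), under the block (0.0595) and with no filter on low counts (0.0563). Aldh1l2, a mitochondrial formyl-tetrahydrofolate dehydrogenase, was lower in HFD versus CON (log2 fold change -1.45, edgeR adjusted p = 0.0301), a call lost without HFD 2 (0.0741), HFD 3 (0.0554), HFD 5 (0.0622), CON 1 (0.0709) or CON 4 (0.0802), without HFD 2 and HFD 5 together (0.16) and scaled by library totals (log2 fold change -1.01, edgeR adjusted p = 0.0628).

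The charging enzymes of tRNA, a textbook part of the ATF4 programme, had 0 higher and 2 lower calls among 12 tested members in HFD versus CON, and 1 higher and 3 lower in ZXD versus CON. These shares, 2 of 12 and 4 of 12, were below or near the 21.0% and 32.7% of all tested genes called. Cars and Mars, for cysteine and methionine, had log2 fold changes of -0.42 and -0.32 in HFD versus CON (edgeR adjusted p = 0.0447 and 0.0432), against -0.0044 and 0.10 scaled by library totals, where neither was called. The Cars call was also lost without any single one of CON 1 to CON 5, HFD 1, HFD 2, HFD 3, ZXD 2, ZXD 3 or ZXD 5 (edgeR adjusted p up to 0.0925), and the Mars call without any single one of CON 1 to CON 5, HFD 1, HFD 2, HFD 5, ZXD 1 or ZXD 5 (up to 0.107). With no filter on low counts neither was called (edgeR adjusted p = 0.0527 for Cars and 0.0693 for Mars). Wars, for tryptophan, was called higher in ZXD versus CON and was 82.8 ± 59.5 CPM in ZXD and 22.5 ± 4.72 CPM in CON (log2 fold change 1.88, edgeR adjusted p = 0.00913). Cars was lower in ZXD versus CON (log2 fold change -0.76, edgeR adjusted p = 0.00193), though not scaled by library totals (0.0988). Mars was also called lower there (log2 fold change -0.30, edgeR adjusted p = 0.0394), but not scaled by library totals (0.293). The Mars call there was also lost without any single CON library, ZXD 1, ZXD 3, ZXD 4 or ZXD 5 (edgeR adjusted p up to 0.101).

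Genes that use serine and glycine or carry folate one-carbon units had 0 higher and 7 lower calls among 19 tested members in HFD versus CON, with a median log2 fold change of -0.56, and 2 higher and 7 lower in ZXD versus CON, with a median of -0.43. Over all tested genes 10.9% were lower in HFD versus CON and 14.8% in ZXD versus CON, with medians of 0.02 and 0.03. Scaled by library totals, 4 were higher and 2 lower in HFD versus CON, and without HFD 2 and HFD 5 2 were lower. The 10 hepatocyte markers had median log2 fold changes of -0.48 in HFD versus CON and -0.60 in ZXD versus CON. The part of hepatocyte markers in the lower values of this list was not tested. Mtr, methionine synthase, fell by 1.24 on the log2 scale in HFD versus CON (edgeR adjusted p = 0.00106). Amt, a subunit of the glycine cleavage system of mitochondria, was 27.1 ± 3.50 CPM in ZXD and 27.0 ± 4.81 CPM in HFD, against 43.5 ± 5.68 CPM in CON (edgeR adjusted p = 0.00305 for ZXD and 0.00372 for HFD), and both calls were lost scaled by library totals (0.122 and 0.121). Gnmt, which methylates glycine, fell by 1.33 in ZXD versus CON (edgeR adjusted p = 0.00434). It was also called lower in HFD versus CON (log2 fold change -1.01, edgeR adjusted p = 0.0243). Srr, serine racemase, fell by 0.89 in HFD versus CON (edgeR adjusted p = 0.00714; 0.0644 without HFD 2 and HFD 5). It was also called lower in ZXD versus CON (log2 fold change -0.74, edgeR adjusted p = 0.0128). Tyms, thymidylate synthase, which also stands in the list of proliferation genes, was 9.43 ± 1.12 CPM in ZXD and 4.03 ± 1.65 CPM in CON (edgeR adjusted p = 0.00513). Shmt1, the cytosolic counterpart of Shmt2, was 187 CPM in ZXD, 163 CPM in HFD and 182 CPM in CON on average and was not called, with log2 fold changes of -0.16 in HFD versus CON and 0.04 in ZXD versus CON. In ZXD versus HFD no gene of the 6 lists was called by edgeR.

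**Figure D4:**
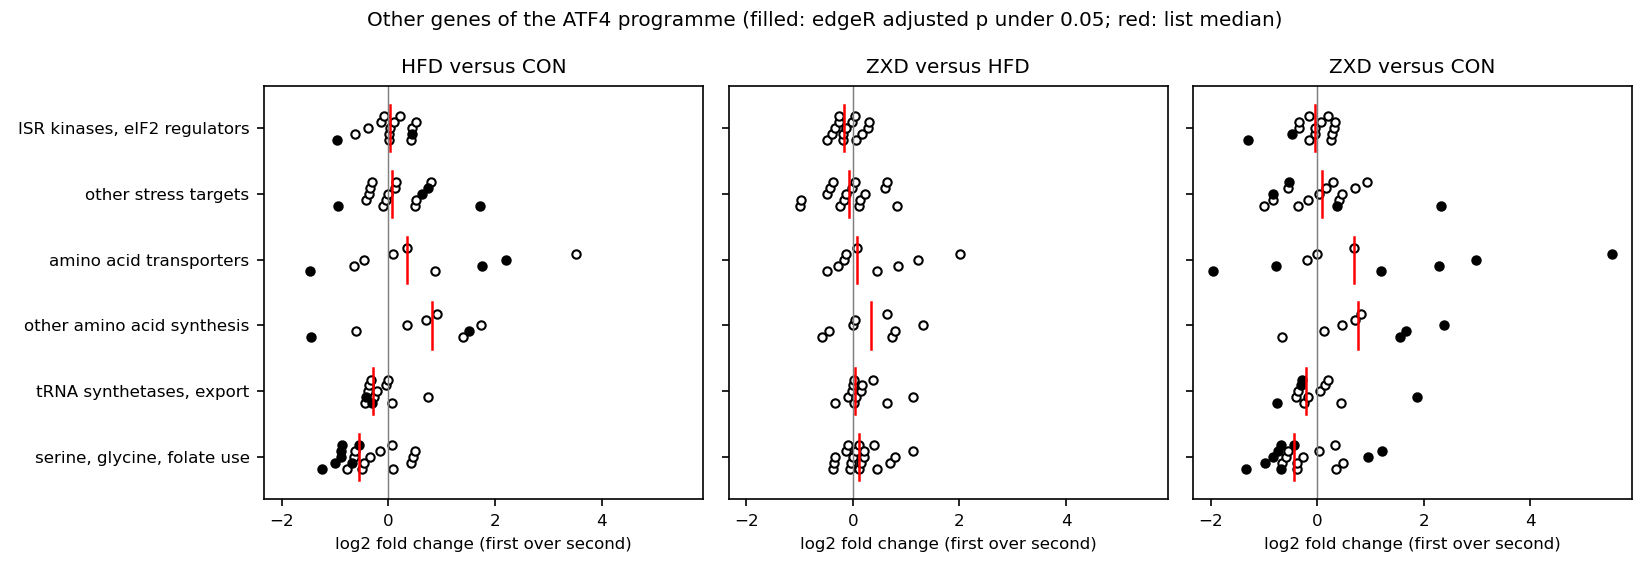
Log2 fold changes (horizontal axis, first-named group over second) of the tested genes in 6 lists around ATF4, in 3 comparisons; filled points have an edgeR adjusted p under 0.05 and red bars are list medians. Genes of serine, glycine and folate use lie mostly to the left against CON (medians -0.56 and -0.43), and the called genes of amino acid carriers lie on both sides.

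Promoter windows for genes of these lists held the motif in 7 of 11 tRNA charging and export genes, 5 of 15 other stress targets, 2 of 8 amino acid carriers, 1 of 5 other synthesis genes, 1 of 14 eIF2 regulators and 0 of 13 genes of serine, glycine and folate use, beside 3.98% of all windows. The start sites of these windows were not compared with the annotated genes, so a window without a match may not cover the upstream promoter.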

How the data were processed

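Liver RNA from 15 libraries, 5 each for ZXD, HFD and CON, was read from 1 deposited table. Per the file headers it holds read counts per gene, not normalized, and FPKM. The authors' deposited FPKM equalled count over gene length over library total for 100% of values within 0.01%. The submitters' processing notes name edgeR; for the aligner, counter, genome build and strand, none is given in the sources used here. Without strand, reads of overlapping and antisense genes cannot be told apart. A simvastatin group in the labels was not analysed here.

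In R 4.3.3, edgeR 4.0.16 fitted a quasi-likelihood model to the counts of all 15 libraries (TMM, robust, 12 residual degrees of freedom) after filterByExpr (minimum count 10, minimum total 15), which left 13163 of 21576 genes. Benjamini-Hochberg adjustment ran over all 13163 genes in each of 3 comparisons, and adjusted p under 0.05 was a call. CPM is on the TMM scale, and 3 counts are 0.183 to 0.285 CPM. SE is the log2 fold change over the square root of F. Correlations used log2 CPM (prior count 2) and 100000 permutations within groups. Depth limits genes near 1 CPM most.

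The members and lists were chosen with earlier results of these data known. Named were all 10 members, up to 3 called genes per list and comparison with the smallest adjusted p, and the 5 genes most like Atf4 and like Asns. Genes outside this rule (Shmt1, Ppp1r15a, the eIF2 kinases) were chosen after their values were seen. Also outside it are the calls of Atf3 and Gnmt in HFD versus CON, and of Eif4ebp1, Slc7a1 and Srr in ZXD versus CON. Those calls are given without the alternatives. Alternatives were library totals as the scale, DESeq2 1.42.0, limma 3.58.1 voom, no filter on low counts, a strict filter (1 CPM in 5 libraries), the replicate number as a block, and leaving out each library; leaving out HFD 2 and HFD 5 together was chosen after seeing the data. Promoters came from the RefSeq table of GRCr8, matched by symbol. The fit was also tested on simulated counts in which few genes were changed. Over the 3 comparisons it recovered 8.64% to 13% of 1.5-fold, 35.6% to 52.1% of 2-fold and 73.3% to 79% of 4-fold changes. Of its calls there, 4% to 8.16% were false. Each rate of recovery rested on 54 to 81 changed genes. Far fewer genes were changed there than were called against CON, so the rates may differ in those comparisons. A gene not called may therefore still have changed.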

Additional observations from a re-analysis of the deposited data

Results flagged for a closer look

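Among 30 sets of 5 libraries (10 members in 3 groups), 2 held a library whose gap to its nearest neighbour exceeded 0.71 of the whole range of its group. Chance gives this in about 1 in 20 sets. Chac1 was 14.5 CPM in HFD 5, against 1.62 to 5.03 CPM in the other HFD libraries, and without HFD 5 its log2 fold change in HFD versus CON was 1.0 (edgeR adjusted p = 0.271). Atf4 was 73.9 CPM in CON 4, against 104 to 114 CPM in the other CON libraries, and without CON 4 its log2 fold change in ZXD versus CON was called lower (edgeR adjusted p = 0.037).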

How the results depend on the processing

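Asns and Shmt2 kept direction and call against CON, in both feed groups, under all 22 alternatives run. Other results moved, and the cause was not tested. In HFD versus CON, 2 members were called higher; DESeq2 gave 4, library totals 5, limma voom 1 and leaving out HFD 2 and HFD 5 gave 1. Over all genes 1322 were higher and 1436 lower; library totals gave 5390 and 505, limma voom 793 higher, and leaving out HFD 2 and HFD 5 436 and 607. In ZXD versus CON, 4 members were higher and 1 lower; limma voom gave 2 higher and DESeq2 2 lower. Over all genes 2356 were higher and 1943 lower; library totals gave 6046 and 628, and limma voom 1531 higher. In ZXD versus HFD edgeR called 0 genes and DESeq2 216 higher and 132 lower.

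With library totals, signs turned in HFD versus CON for Psph (0.23), Trib3 (0.28; 0.053 by limma voom), Ddit3 (0.28) and Mars (0.10), and in ZXD versus CON for Atf4 (0.045), Psph (0.39), Trib3 (0.25) and Mars (0.12). In ZXD versus HFD, Asns became 0.0083 with library totals, 0.12 by limma voom and 0.61 without HFD 2 and HFD 5, where Shmt2 became -0.085.

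Leaving out 1 library gave 754 to 1630 genes higher and 925 to 1645 lower in HFD versus CON, 1607 to 2514 and 1430 to 2166 in ZXD versus CON, and 0 to 6 and 0 to 1 in ZXD versus HFD. Members called higher numbered 1 to 3 in HFD versus CON and 2 to 4 in ZXD versus CON, and lower 1 to 1 and 1 to 2. Log2 fold changes in ZXD versus HFD then ran from -0.17 to 0.23 for Asns, -0.077 to 1.10 for Chac1, -0.27 to 0.75 for Mthfd2, -0.12 to 0.52 for Phgdh, -0.12 to 0.32 for Psat1, -0.10 to 0.11 for Shmt2 and -0.28 to 0.10 for Trib3. Trib3 ran from -0.35 to 0.14 in HFD versus CON and -0.43 to 0.032 in ZXD versus CON, and Psph from -0.13 to 0.082 in ZXD versus CON.

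The groups share replicate numbers, but same-numbered libraries did not deviate together (correlations -0.547 to 0.26, and 4 of 15 libraries correlated best with their own number). With the replicate block 792 genes were higher in HFD versus CON, and Asns in ZXD versus HFD was 3.0e-05.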
